A study of Homo sapiens with 12 samples.

Results

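DNA replication and mitosis are run by groups of genes whose transcripts rise and fall with the cell cycle, and 53 of these genes were followed in HT1080 cells treated with PMA or with ConA. They were taken by gene symbol as a list set with earlier results of these data known, and comprised 23 genes of the replication machinery, 7 regulators of entry into S phase (G1/S regulators), 21 mitotic genes and the mitotic transcription factors FOXM1 and MYBL2. All 53 were among the 15459 genes listed for both experiments, and all passed the minimum level for testing. HT1080 is a human fibrosarcoma cell line with mesenchymal features, used here unmodified (wt). PMA (phorbol 12-myristate 13-acetate) is a phorbol ester that activates protein kinase C, and ConA (concanavalin A) is a lectin that binds cell surface glycans. In all 4 groups, 1000000 cells were seeded per dish in biotin-depleted medium with 10% serum and moved after 3 days to low-serum medium with 1% serum. One experiment compared 3 libraries of cells given 40 nM PMA for 24 h with 3 untreated controls (numbered 1 to 3), and the other set 3 libraries of cells given 40 µg/mL ConA for 24 h against another 3 untreated controls (numbered 4 to 6). Controls and treated cells alike had thus been kept in low serum.

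A cell commits to division when D and E cyclins with their kinases inactivate the retinoblastoma protein and free E2F factors, which switch on the genes for DNA synthesis. The MCM helicase is loaded on origins by ORC, CDC6 and CDT1, is activated with CDC45 and GINS, and is followed by polymerases on the PCNA clamp. Later, B-MYB (MYBL2) and FOXM1 switch on the cyclin B, kinase, spindle and centromere genes that carry the cell through mitosis, and these are recognised at a promoter element called the cell cycle genes homology region (CHR), often next to a CCAAT box bound by NF-Y.

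The promoter sequences of both arms are shown here as background to the comparison of S-phase with mitotic genes. Below are the last 100 bases before the annotated start of E2F1 and CDC25A (G1/S), PCNA (replication), and PLK1, KIF11 and MKI67 (mitosis), 5′ to 3′ on the strand of the gene, from RefSeq on GRCh38.p14. Capitals mark matches to an E2F site, a CHR or a CCAAT box on either strand, and in MKI67 a CHR and a CCAAT box overlap. The E2F1 stretch is chr20:33686386-33686485 (minus strand), CDC25A chr3:48188418-48188517 (minus), PCNA chr20:5126623-5126722 (minus), PLK1 chr16:23678789-23678888 (plus), KIF11 chr10:92593030-92593129 (plus) and MKI67 chr10:128126424-128126523 (minus). Each lies directly upstream of an annotated start.
E2F1: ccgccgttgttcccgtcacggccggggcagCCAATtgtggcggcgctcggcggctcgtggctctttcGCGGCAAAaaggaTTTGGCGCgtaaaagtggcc
CDC25A: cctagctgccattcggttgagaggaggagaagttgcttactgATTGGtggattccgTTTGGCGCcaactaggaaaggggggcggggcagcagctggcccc
PCNA: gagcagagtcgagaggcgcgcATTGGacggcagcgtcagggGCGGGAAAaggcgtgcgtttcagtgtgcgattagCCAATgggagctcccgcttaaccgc
PLK1: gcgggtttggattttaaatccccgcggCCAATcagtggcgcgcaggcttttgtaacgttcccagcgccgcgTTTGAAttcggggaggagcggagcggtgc
KIF11: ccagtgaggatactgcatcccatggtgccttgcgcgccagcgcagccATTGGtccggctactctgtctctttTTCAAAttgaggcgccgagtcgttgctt
MKI67: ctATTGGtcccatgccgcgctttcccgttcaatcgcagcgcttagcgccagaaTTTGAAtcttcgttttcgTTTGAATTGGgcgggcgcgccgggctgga

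Over the 43 members with an entry in that table (54 windows of 300 bases, 250 before and 50 after a start), the 2 arms differed in the letters they hold. An E2F site (TTTCCCGC, TTTGGCGC, TTTCGCGC or TTTGCCGC, both strands) was found in 13 of 27 replication windows (48.1%), in 3 of 4 G1/S windows and in 3 of 22 mitotic windows (13.6%), against 3.31% of all 35116 windows of the table. A CHR (TTTGAA or TTCGAA, both strands) was found in 14 of 22 mitotic windows (63.6%), in 2 of 27 replication windows (7.41%) and in 16.4% of all windows. A CCAAT box (CCAAT, both strands) was common to both arms, in 18 of 22 mitotic and 20 of 27 replication windows, against 34.6% of all. MCM4, MCM5, CCND1, CCNE2, CDK2, AURKA, BIRC5, TPX2, UBE2C and FOXM1 had no entry. These are matches of letters and were not tested for binding.

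Transcripts of the 53 genes were read from the deposited normalized counts, which are reads per gene symbol scaled by 1 factor per library, without division by gene length, so that levels are compared between libraries and not between genes. Libraries held an estimated 33635937 to 45592979 reads. The estimate is rough, since under the factors used only 80.2% to 82.6% of low values became whole reads. Replicates of a group differed by a median of 3.3% to 5.22% (SD over mean, over the 53 genes), with at most 29.3% for E2F2 in the ConA controls. Treated cells were compared with the controls of their own table by limma on log2(value + 1), and a gene was called higher or lower at an adjusted p of at most 0.05 over all genes tested. Fold changes below are from that fit, on the same log2 scale and with standard errors (SE). Since whole cultures were sequenced, fewer cells in a phase and less RNA per cell cannot be told apart, and since the labels do not say that libraries came from separate cultures on separate days, p-values measure the spread between these libraries only.

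Mesenchymal markers were high in all libraries, by the summed level of VIM, FN1, CDH2, CD44, MMP14, SPARC and THY1 (the last listed only in the PMA table). The sum was 571008 to 590868 normalized counts in the PMA controls and 603321 to 630889 with PMA, with 3 called higher and 3 lower. It was 706092 to 780816 in the ConA controls and 544348 to 589302 with ConA, with 4 called lower and 1 higher. Keratins 8, 18 and 19, which this line also expresses, made up nearly all of the epithelial markers, whose sum was lower with PMA (15625 to 16271) than in its controls (27635 to 29524). The epithelial sum was also lower with ConA (34581 to 37455) than in its controls (39189 to 40760). The PMA libraries and their controls also held transcripts of genes used as markers of T and NK cells. All 8 such markers (PTPRC, CD3D, CD3E, CD3G, CD2, GNLY, NKG7 and GZMB) were listed in the PMA table, with a summed level of 818 to 882 in the controls and 1087 to 1729 with PMA, and 5 of them were called higher with PMA. In the ConA table CD3D alone was listed, at 21.6 to 31. The erythroid markers were listed in neither table. The 53 genes summed to 110763 to 112497 in the PMA controls and 139350 to 142597 with PMA. Without CCND1 the other 52 summed to 80776 to 81404 and 81506 to 83152. Neither the source of the T and NK cell marker transcripts nor their part in the PMA results was tested.

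With PMA the listed genes of the 2 arms of the cell cycle moved apart, and with ConA most listed genes of both rose. Of the 23 replication genes, 18 rose and 2 fell with PMA (median log2 fold change 0.40), whereas 0 of the 21 mitotic genes rose and 12 fell, with a median of -0.24. With ConA 22 replication genes rose and 1 fell, with a median of 0.62, and 14 mitotic genes rose and 3 fell, with a median of 0.45. Over all genes tested, 32.8% were called higher and 30.5% lower with PMA, and 32.8% higher and 32.5% lower with ConA, with a median log2 fold change of 0.00 for both treatments. Mitotic genes outside the list moved both ways with PMA. Of 60 further mitotic genes, described below, 28.3% rose and 31.7% fell with PMA, close to all genes. Over the 53 genes together, 24 rose and 14 fell with PMA and 44 rose and 4 fell with ConA. The changes were mostly under 2-fold. By a stricter rule of at least 2-fold with an adjusted p of at most 0.0001, which 8.65% of all genes met with PMA and 8.71% with ConA, 1 member passed with PMA (KIF20A, lower) and 9 with ConA (all higher).

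**Figure D1:**
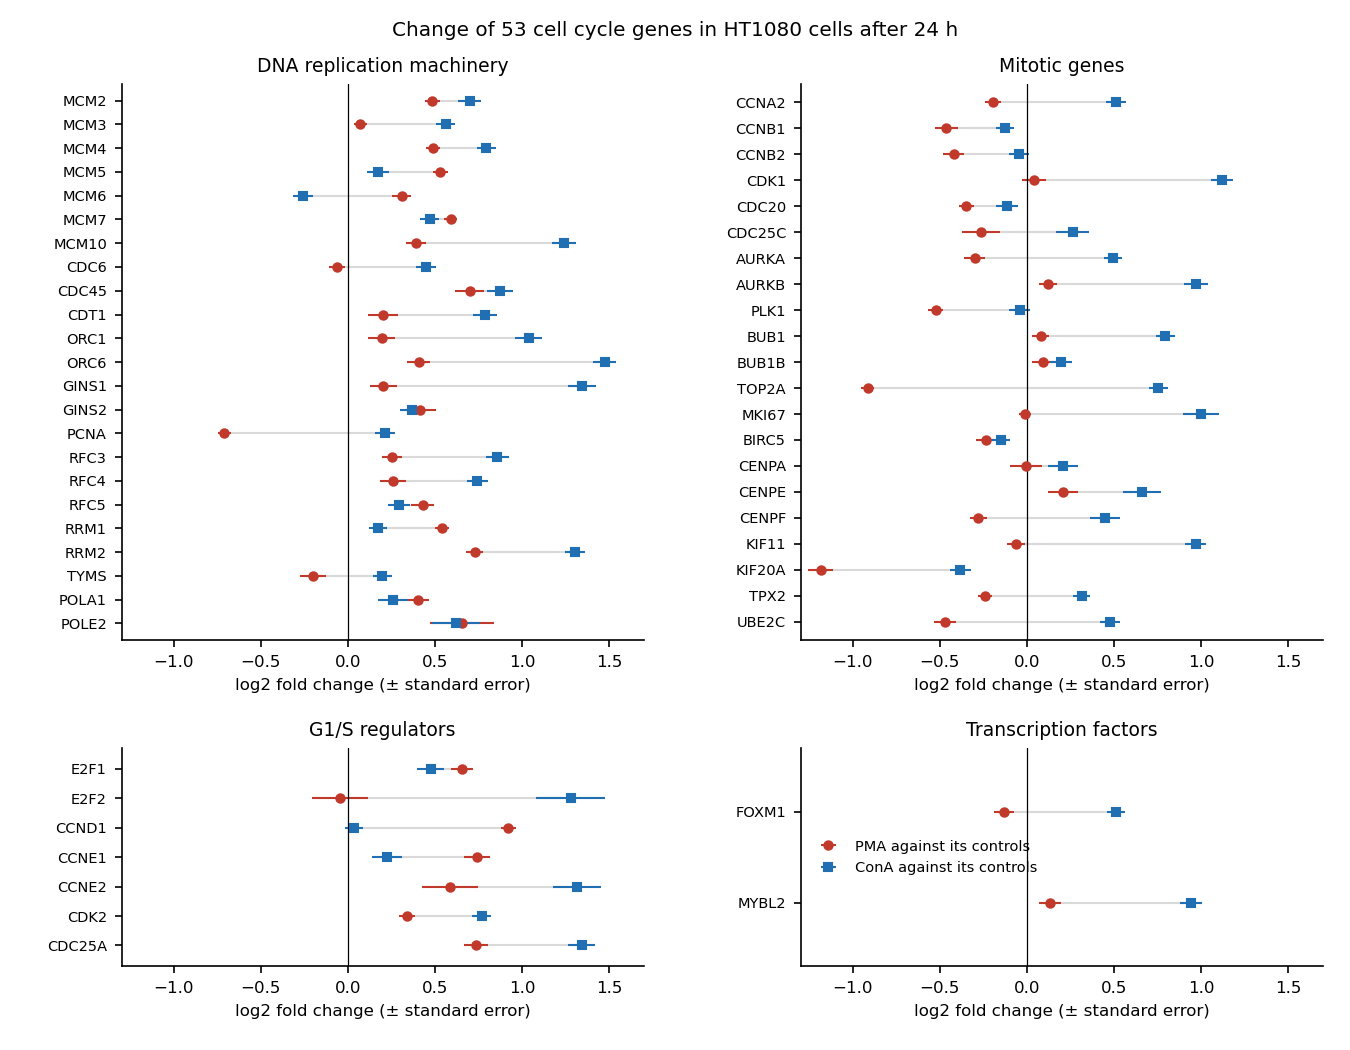
Log2 fold change (x axis, points with standard errors) of each of the 53 genes with PMA (circles) and with ConA (squares), each against the controls of its own table, 3 libraries a group. Replication genes lie mostly to the right of 0 for both treatments, while mitotic genes lie mostly near or left of 0 with PMA and mostly right of 0 with ConA.

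The gap between the arms was present in every treated library. The mean log2 level of the 23 replication genes lay 0.30, 0.34 and 0.31 above the control mean in the PMA libraries, and that of the 21 mitotic genes at -0.31, -0.23 and -0.23. The replication mean minus the mitotic mean was thus 0.57 ± 0.03 with PMA and 0.00 ± 0.02 in its controls (SD, n = 3). With ConA the replication genes lay 0.66, 0.62 and 0.64 above their controls and the mitotic genes 0.39, 0.41 and 0.39. The gap was then 0.24 ± 0.03, against 0.00 ± 0.04 in the controls (SD, n = 3). These means are descriptions of the list and carry no test. For the 47 further replication and 60 further mitotic genes described below, the means were 0.29 and -0.05 with PMA. With ConA they were 0.56 and 0.53, so the gap with ConA was nearly absent outside the list.

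**Figure D2:**
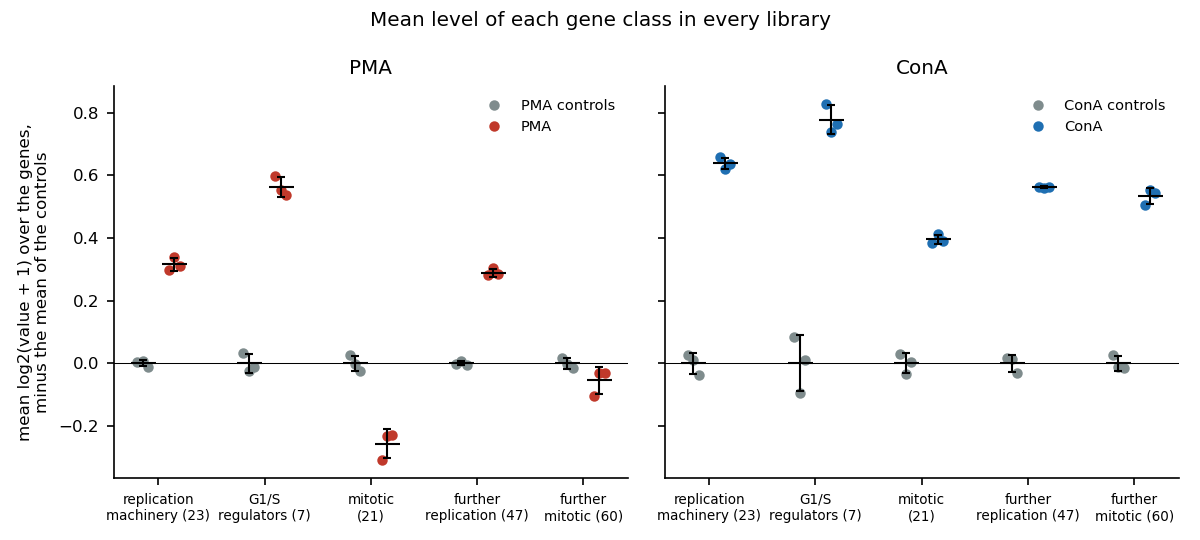
Mean of log2(value + 1) over the genes of each class in every library, minus the mean of the controls (y axis), for PMA (left) and ConA (right). Points are libraries, horizontal marks with bars are group means with the SD of 3 libraries, and the number of genes stands under each class. With PMA the mitotic genes lie below the controls and the replication genes above, and with ConA all classes lie above.

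Among the 9 genes of the replicative helicase (MCM2 to MCM7, CDC45, GINS1 and GINS2), which unwinds DNA at the fork, 8 rose with PMA and 8 with ConA. MCM2, a subunit of the MCM ring, stood at 3078, 2944 and 3072 normalized counts in the PMA controls and at 4300, 4039 and 4388 with PMA. It stood at 3296, 3528 and 3701 in the ConA controls and at 6189, 5270 and 5650 with ConA. Treated libraries lay above all controls in both experiments, with log2 fold changes of 0.48 (SE 0.04, adjusted p = 1.98e-06) and 0.70 (SE 0.07, adjusted p = 4.31e-07). The ring did not move as 1 unit. MCM6 was 1431, 1365 and 1259 in the PMA controls against 1705, 1645 and 1669 with PMA, but 2026, 1981 and 1977 in the ConA controls against 1744, 1643 and 1623 with ConA. It therefore rose with PMA (log2 fold change 0.31, adjusted p = 0.000378) and fell with ConA (-0.26, adjusted p = 0.00109), the only replication gene to do so. MCM5 rose more with PMA (0.53) than with ConA (0.17; adjusted p of the difference 0.00067), and its rise with ConA was lost without ConA control 4, ConA library 1 or ConA library 3 (adjusted p 0.0711 to 0.0973). MCM3 rose with ConA (0.56) and stood at 0.07 with PMA (adjusted p = 0.127), a difference that passed the test (adjusted p = 6.43e-06).

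CDC45, which joins the MCM ring to form the active helicase, had the second largest rise of the replication genes with PMA. It went from 444, 419 and 371 to 719, 663 and 621 with PMA, and from 476, 515 and 486 to 962, 872 and 877 with ConA. No treated library overlapped its controls, and the log2 fold changes of 0.70 (SE 0.08, adjusted p = 1.98e-05) and 0.87 (SE 0.07, adjusted p = 1.45e-07) did not differ detectably (difference -0.17, SE 0.11, adjusted p = 0.184). GINS1, a subunit of the complex that completes the helicase, behaved otherwise. It was at 414, 434 and 445 in the PMA controls and at 549, 463 and 479 with PMA, and at 547, 564 and 474 in the ConA controls against 1239, 1424 and 1361 with ConA. The rise was 2.54-fold with ConA (log2 1.34, adjusted p = 5.03e-09) and 1.15-fold with PMA (log2 0.20, adjusted p = 0.0403), where it was lost without PMA control 1, PMA control 2, PMA library 1 or PMA library 3 (adjusted p 0.0512 to 0.171), under median centring (adjusted p = 0.0506) and without a variance trend (adjusted p = 0.0641).

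Genes that license and fire origins (MCM10, CDC6, CDT1, ORC1 and ORC6) rose more with ConA than with PMA, all 5 at the threshold of the test of the difference. ORC6, a subunit of the complex that marks origins, had the largest rise of any member with ConA. Its values were 542, 510 and 492 in the ConA controls and 1399, 1463 and 1431 with ConA, a 2.78-fold rise (log2 1.47, SE 0.07, adjusted p = 2.03e-10). With PMA it went from 394, 404 and 394 to 492, 540 and 550, also without overlap but with a log2 fold change of 0.41 (adjusted p = 0.000301). CDC6, which loads the MCM ring, separated the treatments. The PMA controls held 1341, 1359 and 1330 and the PMA libraries 1343, 1264 and 1251, which overlapped (log2 fold change -0.06, adjusted p = 0.264), although under quantile normalization it was called lower (-0.13, adjusted p = 0.027). With ConA it rose from 1974, 1839 and 1802 to 2615, 2448 and 2600 (0.45, adjusted p = 1.1e-05). MCM10 and ORC1 rose with ConA by 1.24 and 1.04 (log2) and with PMA by 0.39 and 0.19. The small rise of ORC1 with PMA was lost without PMA control 2 or 3 or without PMA library 2 or 3 (adjusted p 0.105 to 0.136). CDT1 rose with ConA (0.79), with 0.20 for PMA (adjusted p = 0.0637), which was called higher without PMA control 3 or PMA library 2 (adjusted p 0.00181 to 0.0309).

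PCNA, the sliding clamp that holds the polymerases on DNA, had the largest fall of the replication genes with PMA, where TYMS was the only other one called lower. It was at 4781, 5035 and 4782 in the PMA controls and at 2970, 3001 and 2956 with PMA. In the ConA experiment it was at 6943, 7334 and 6451 in the controls and at 8057, 7859 and 8069 after treatment. It fell to 0.61 of the control level with PMA (log2 -0.71, SE 0.04, adjusted p = 2.66e-08) and rose slightly with ConA (0.21, SE 0.06, adjusted p = 0.00383). The clamp loader subunits RFC3, RFC4 and RFC5 and the polymerase subunits POLA1 and POLE2 all rose with PMA (0.25 to 0.65) and with ConA (0.26 to 0.86). The rise of POLA1 with ConA was lost without ConA control 5 or ConA library 3 (adjusted p 0.0557 and 0.0783).

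Among the genes that supply deoxynucleotides, RRM2, the cell cycle-regulated subunit of ribonucleotide reductase, rose most. It went from 1428, 1434 and 1495 to 2314, 2391 and 2516 with PMA, and from 2228, 2138 and 1983 to 5189, 5309 and 5155 with ConA. The rise was 1.66-fold with PMA (log2 0.73, adjusted p = 1.12e-07) and 2.47-fold with ConA (log2 1.30, adjusted p = 1.15e-10), larger with ConA by the test of the difference (-0.58, adjusted p = 2.38e-06). Its partner subunit RRM1 rose more with PMA (0.54) than with ConA (0.17; adjusted p of the difference 5.42e-05). TYMS, which makes thymidylate, was at 2311, 2633 and 2775 in the PMA controls and 2367, 2335 and 2014 with PMA. These ranges overlapped, and its call as lower (-0.20, adjusted p = 0.0366) was lost without PMA control 2, PMA control 3 or PMA library 3 (adjusted p 0.0818 to 0.159). In the GENCODE 29 annotation 58.2% of the exon bases of TYMS are shared with ENOSF1 on the other strand, 47.5% of those of CCNE2 with INTS8, 30.7% of those of MCM2 with an antisense RNA, and 27.9% of those of RRM2 with a gene on the same strand. Whether reads were counted by strand is not given in the sources used here, so reads of these pairs may be mixed.

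Of the 7 regulators of S-phase entry, 6 rose with PMA (median log2 fold change 0.65) and 6 with ConA (median 0.77), and 0 fell with either. The gene that was not called differed between them. CCND1 encodes cyclin D1, which links growth signals to the cycle. It stood at 30717, 29696 and 31722 in the PMA controls and at 58774, 56307 and 59444 with PMA, a 1.89-fold rise (log2 0.92, SE 0.04, adjusted p = 6.41e-09). With ConA it stood at 28600, 28108 and 28495 against 28368, 26725 and 28178 in the controls, which overlapped (0.03, SE 0.05, adjusted p = 0.583). The difference between the treatments was 0.89 (SE 0.06, adjusted p = 1.91e-09). Under quantile normalization CCND1 was called higher with ConA also (0.21, adjusted p = 0.00167).

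E2F2, an activator E2F of low abundance, showed the opposite. It was at 64.5, 56.3 and 61.4 in the PMA controls and at 66.2, 52.3 and 58.7 with PMA, and at 60.4, 38.0 and 70.1 in the ConA controls against 136, 140 and 125 with ConA. The groups overlapped with PMA (-0.04, adjusted p = 0.823) and were apart with ConA (2.43-fold, log2 1.28, SE 0.20, adjusted p = 5.93e-05). The difference between the treatments was -1.32 (SE 0.27, adjusted p = 0.000381). E2F1, another activator E2F, rose with both, from 492, 458 and 495 to 724, 765 and 787 with PMA and from 852, 855 and 771 to 1230, 1040 and 1183 with ConA. Its log2 fold changes of 0.65 (adjusted p = 3.48e-06) and 0.48 (adjusted p = 8.43e-05) did not differ detectably (difference 0.18, SE 0.10, adjusted p = 0.134).

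The E cyclins, partners of CDK2 at the start of S phase, split by treatment. CCNE1 went from 235, 232 and 243 to 396, 385 and 408 with PMA (log2 fold change 0.74, adjusted p = 4.69e-06). With ConA it went from 327, 303 and 304 to 373, 361 and 358, without overlap (0.23, adjusted p = 0.0311), but this call was lost under median centring or quantile normalization (adjusted p 0.105 and 0.213) and without ConA control 5, ConA control 6 or any 1 ConA library (adjusted p 0.0598 to 0.0837). CCNE2 rose more with ConA. It went from 115, 103 and 84.5 to 282, 234 and 239 with ConA (log2 fold change 1.32, adjusted p = 1.19e-06), and from 91.4, 83.2 and 68.5 to 119, 144 and 104 with PMA (0.59, SE 0.16, adjusted p = 0.00736). The change of CCNE1 was larger with PMA by 0.52 (adjusted p = 0.000362) and that of CCNE2 smaller by 0.73 (difference -0.73, adjusted p = 0.00758). CDK2 itself rose by 0.34 with PMA and 0.77 with ConA. CDC25A, the phosphatase that activates CDK2, went from 345, 358 and 361 to 633, 569 and 572 with PMA and from 474, 415 and 489 to 1128, 1161 and 1203 with ConA. These rises of 1.66-fold (adjusted p = 2.84e-06) and 2.54-fold (adjusted p = 2.68e-09) were free of overlap.

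**Figure D3:**
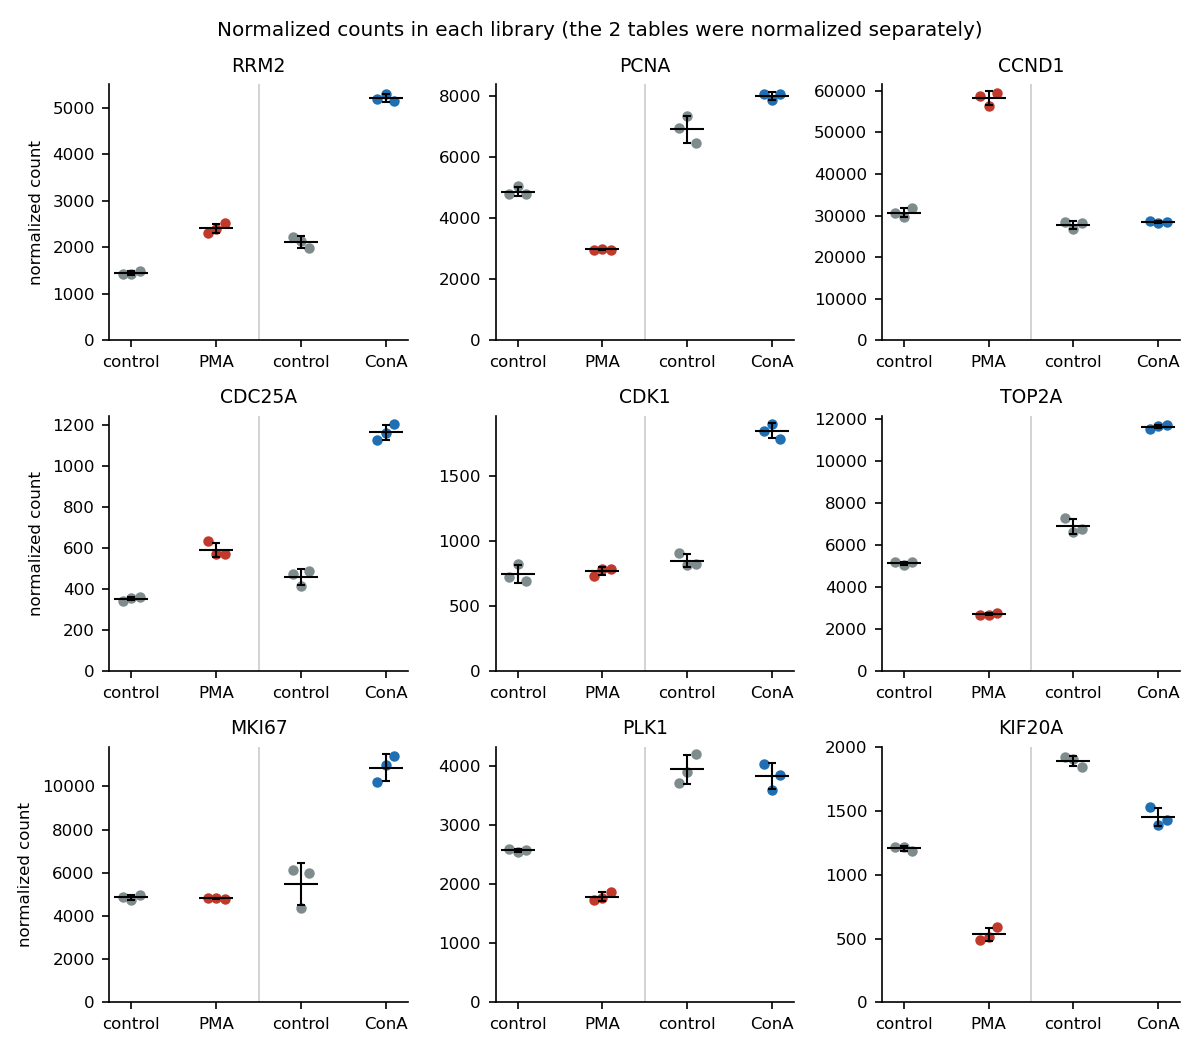
Normalized counts (y axes, from 0) of 9 genes in each of the 12 libraries, with the group mean and SD of 3 libraries. The vertical line separates the PMA experiment from the ConA experiment. TOP2A and PCNA lie below their controls with PMA and above them with ConA, CCND1 is raised by PMA, and CDK1 and MKI67 by ConA.

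Of the 5 genes for the mitotic cyclins, CDK1 and its phosphatase CDC25C, 3 fell with PMA (CCNA2, CCNB1 and CCNB2) and 3 rose with ConA (CCNA2, CDK1 and CDC25C). CDK1, the kinase that drives entry into mitosis, was at 727, 825 and 694 in the PMA controls and at 735, 783 and 789 with PMA, which overlapped (log2 fold change 0.04, adjusted p = 0.631). With ConA it went from 907, 814 and 824 to 1847, 1901 and 1786, a 2.17-fold rise (log2 1.12, SE 0.06, adjusted p = 2.73e-09). CCNB1, the cyclin that activates CDK1, did not follow its kinase. It fell from 3014, 3042 and 2722 to 1928, 2247 and 2201 with PMA (-0.46, adjusted p = 7.1e-05). With ConA it was at 5294, 4905 and 4965 against 5400, 5704 and 5443 in the controls (-0.13, adjusted p = 0.0478), a call that was lost without ConA control 4, 5 or 6 or without ConA library 2 or 3 (adjusted p 0.053 to 0.154), in 1 fit of all libraries (adjusted p = 0.073) and without a variance trend (adjusted p = 0.0907). Cyclin A2, which acts in S phase as well as in G2, fell with PMA (-0.20, adjusted p = 0.00338) and rose with ConA (0.51, adjusted p = 1.77e-06). CDC25C rose with ConA by 0.26 (adjusted p = 0.0238), which was lost without ConA control 6 or ConA library 2 (adjusted p 0.0881 to 0.103). With PMA it was at -0.26 (adjusted p = 0.0541) and was called lower without PMA control 3 (adjusted p = 0.0443).

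Of the 8 mitotic kinases, checkpoint and ubiquitin ligase genes, 5 fell with PMA (CDC20, AURKA, PLK1, BIRC5 and UBE2C) and 5 rose with ConA (AURKA, AURKB, BUB1, BUB1B and UBE2C). PLK1, a kinase needed for spindle assembly and exit from mitosis, was at 2596, 2542 and 2579 in the PMA controls and at 1724, 1770 and 1873 with PMA. It was at 3715, 3904 and 4203 in the ConA controls and at 4027, 3594 and 3853 with ConA. PLK1 was thus below all controls with PMA (-0.52, SE 0.04, adjusted p = 1.16e-06) and within their range with ConA (-0.04, SE 0.06, adjusted p = 0.56). The Aurora kinases differed from each other. AURKA, the spindle pole kinase, fell with PMA (-0.30, adjusted p = 0.000981) and rose with ConA (0.50, adjusted p = 1.32e-06), while AURKB, the centromere kinase, rose with ConA (0.97, adjusted p = 2.46e-08) with 0.12 for PMA (adjusted p = 0.0688). UBE2C and CDC20, which serve the anaphase-promoting complex, fell with PMA by 0.47 and 0.35 on the log2 scale, and with ConA UBE2C rose (0.48) while CDC20 was at -0.12 (adjusted p = 0.122), called lower without ConA control 4 or ConA library 1 (adjusted p 0.019 to 0.0494). BIRC5 (survivin), a partner of AURKB, was called lower with both (-0.24 and -0.15), and the fall with ConA was lost without ConA control 5 or 6 or ConA library 2 or 3 (adjusted p 0.0834 to 0.114). BUB1B rose with ConA (0.19, adjusted p = 0.0159), a call lost without ConA control 5 (adjusted p = 0.0744).

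Genes for chromosome structure, centromere and spindle held the largest falls with PMA. TOP2A, the topoisomerase that untangles sister chromatids, had the largest difference between treatments of all 53 genes. It was at 5197, 5053 and 5186 in the PMA controls and at 2693, 2695 and 2799 with PMA, and at 7316, 6614 and 6782 in the ConA controls against 11553, 11670 and 11704 with ConA. It fell to 0.53 of the control level with PMA (log2 -0.91, SE 0.04, adjusted p = 2.7e-09) and rose 1.69-fold with ConA (log2 0.76, SE 0.05, adjusted p = 2.03e-08). The difference was -1.67 (SE 0.06, adjusted p = 2.51e-13).

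KIF20A, a kinesin of the central spindle and cytokinesis, fell with both treatments. It went from 1222, 1218 and 1187 to 490, 515 and 593 with PMA, the largest fall of any member, to 0.44 of the control level (log2 -1.19, SE 0.07, adjusted p = 6.12e-08). With ConA it went from 1923, 1910 and 1847 to 1535, 1392 and 1433 (-0.38, SE 0.06, adjusted p = 5.92e-05). MKI67, which encodes the proliferation antigen Ki-67 of the chromosome surface, was unlike it. The PMA controls held 4856, 4759 and 4954 and the PMA libraries 4839, 4838 and 4780, which overlapped (-0.01, SE 0.04, adjusted p = 0.805). With ConA it went from 6129, 4360 and 5978 to 10188, 10979 and 11418 (log2 fold change 1.00, SE 0.10, adjusted p = 8.93e-07). Under quantile normalization MKI67 was called lower with PMA (-0.16, adjusted p = 0.00197).

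KIF11, the kinesin that pushes the spindle poles apart, was at 1022, 955 and 970 in the PMA controls and at 904, 964 and 951 with PMA (-0.06, adjusted p = 0.314). With ConA it went from 1377, 1221 and 1308 to 2492, 2612 and 2540, a 1.96-fold rise (adjusted p = 6.62e-09). Among the remaining genes, CENPF and TPX2 fell with PMA (-0.28 and -0.24) and rose with ConA (0.45 and 0.31), CENPE rose with ConA (0.66), with 0.21 for PMA (adjusted p = 0.0595), and CENPA, the centromere histone, was called with neither (adjusted p = 0.96 and 0.0506). CENPE was called higher with PMA without PMA control 1 or PMA library 1 (adjusted p 0.0119 to 0.0285), and CENPA higher with ConA without ConA control 4 or ConA library 3 (adjusted p 0.0273 to 0.0457).

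FOXM1, the forkhead factor of mitotic genes, was at 2328, 2196 and 2523 in the PMA controls and at 2164, 2047 and 2217 with PMA, which overlapped (-0.13, SE 0.06, adjusted p = 0.059). This value was called lower under median centring, quantile normalization or 1 fit of all libraries (adjusted p 0.0418, 0.00296 and 0.0452) and without PMA control 2 (adjusted p = 0.0177). With ConA FOXM1 rose from 4437, 4114 and 4087 to 5873, 5949 and 6167 (0.51, adjusted p = 1.23e-06). MYBL2 was at 594, 670 and 651 in the PMA controls and at 694, 712 and 690 with PMA (0.13, adjusted p = 0.0843), and rose with ConA from 1085, 1156 and 1209 to 2238, 2115 and 2273 (0.94, adjusted p = 1.15e-08).

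Set side by side, the calls of the 2 experiments, which share no control libraries, differed by arm only in part. The share of all genes with the same pairs of calls was not counted. Of the replication genes, 17 of 23 rose with both treatments, and MCM6 rose with PMA and fell with ConA. PCNA and TYMS fell with PMA and rose with ConA, and MCM3, CDC6 and CDT1 rose with ConA and were not called with PMA. Both of these last patterns were also found among mitotic genes. Of the mitotic genes, 6 fell with PMA and rose with ConA (CCNA2, AURKA, TOP2A, CENPF, TPX2 and UBE2C), 3 fell with both (CCNB1, BIRC5 and KIF20A), 3 fell with PMA and were not called with ConA (CCNB2, CDC20 and PLK1), and 8 rose with ConA and were not called with PMA. Each treatment had its own experiment and controls, so treatment and experiment cannot be told apart in a difference between the changes. The change itself differed between the treatments for 43 of 53 members, 5 with the more positive change for PMA and 38 for ConA, where 30.4% and 30.7% of 15030 genes were called in the 2 directions. Of the mitotic genes 18 of 21 were lower with PMA than with ConA in this sense and 0 higher (median difference -0.71). The replication genes were divided, with 14 lower, 3 higher (MCM5, MCM6 and RRM1) and 6 not called (median difference -0.40). By the 2-fold rule, which 10.6% of all genes met for this difference, 6 members passed, all lower with PMA (TOP2A, GINS1, CDK1, ORC6, KIF11 and MKI67). Counted by gene, a CHR was found in 5 of 8 mitotic genes that fell with PMA and in 7 of 9 not called, and in 8 of 11 that rose with ConA and 4 of the other 6, and these shares were not compared by a test.

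A further 47 replication genes and 60 mitotic genes of the same pathways were counted to see how far the pattern reached. Of the further replication genes 31 rose and 3 fell with PMA (median 0.26) and 38 rose and 3 fell with ConA (median 0.58). ATAD2, a chromatin ATPase of S phase, rose by 1.14 with PMA and 1.20 with ConA, POLA2, the polymerase alpha accessory subunit, by 0.83 and 1.32, CLSPN, a checkpoint mediator at the fork, by 0.68 and 1.68, and DTL, which directs degradation of licensing factors, by 0.58 and 1.26 (all log2). Of the further mitotic genes 17 rose and 19 fell with PMA (median -0.03), close to the background of all genes, and 51 rose and 2 fell with ConA (median 0.53). The share that fell with PMA was 31.7% of these 60 and 57.1% of the 21, and the difference of these shares was not tested. In the test of the difference between treatments 51 of 60 were lower with PMA than with ConA and 0 higher. PIMREG, NEK2 and CENPW had the largest changes with PMA, with log2 fold changes of -0.85 (adjusted p = 5.44e-05), -0.63 (adjusted p = 5e-05) and 0.78 (adjusted p = 5.38e-05). CDCA5 (sororin, which protects cohesion), ESPL1 (separase, which ends it) and the checkpoint kinase TTK rose most with ConA, by 1.27, 1.17 and 1.07 on the log2 scale, against 0.26, 0.39 and 0.09 with PMA (TTK, adjusted p = 0.178).

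**Figure D4:**
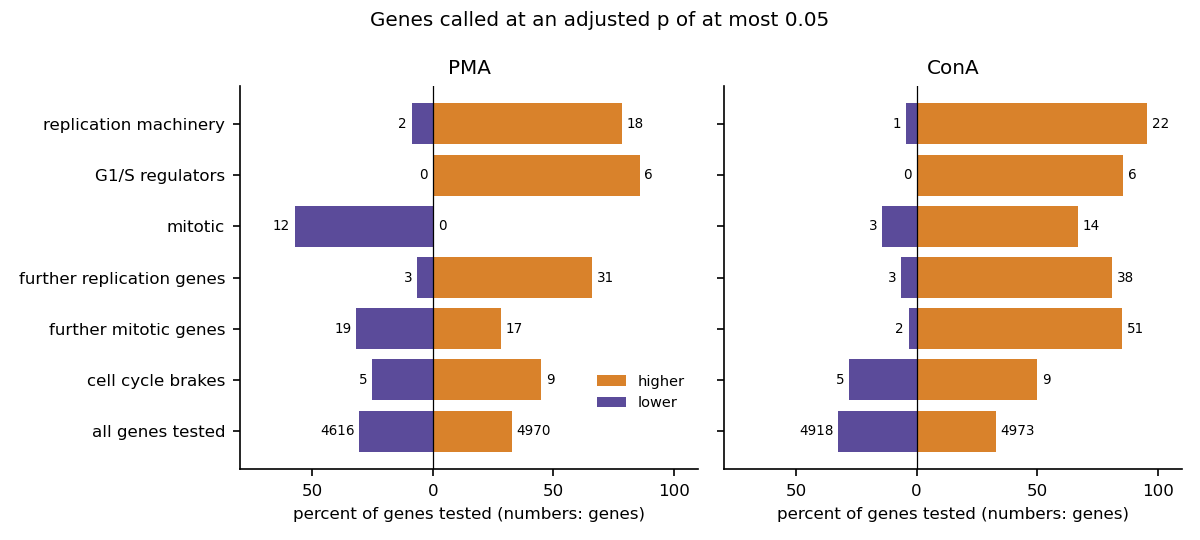
Percent of the genes tested (x axis) that were called higher (right of 0) or lower (left of 0) at an adjusted p of at most 0.05, with the number of genes beside each bar, for PMA and ConA. The mitotic genes have 12 lower and 0 higher with PMA, and the replication genes 18 higher, beside 4970 higher and 4616 lower over all genes tested.

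Of 20 inhibitors of the cycle tested with PMA 9 rose (45%) and 5 fell (25%), and of 18 tested with ConA 9 rose (50%) and 5 fell (27.8%), beside 32.8% and 30.5% of all genes with PMA and 32.8% and 32.5% with ConA. CDKN1A (p21), an inhibitor of cyclin-dependent kinases, was at 27225, 27073 and 27090 in the PMA controls and 29958, 29727 and 31279 with PMA (log2 fold change 0.16, adjusted p = 0.00299), which was lost under quantile normalization (0.02, adjusted p = 0.731). It fell with ConA from 32180, 35536 and 33539 to 24972, 22709 and 23912 (-0.50, adjusted p = 3.56e-06). CDKN1B (p27), its relative, fell with PMA (-0.48, adjusted p = 3.44e-06) and with ConA (-0.18, adjusted p = 0.0117). CDKN2C (p18), which inhibits CDK4 and CDK6, fell with PMA to 0.44 of the control level (adjusted p = 4.67e-07), with -0.15 for ConA (adjusted p = 0.0783, but called lower under median centring and quantile normalization, adjusted p 0.019 and 0.0262). The repressor E2F7 went opposite ways, up by 0.84 with PMA (adjusted p = 7.81e-09) and down with ConA (-0.46, adjusted p = 2.93e-06). BTG2, an antiproliferative gene, fell with both (-0.84 and -0.56), while PKMYT1, the kinase that restrains CDK1, and the pocket protein RBL1 rose with ConA (1.27 and 1.12) and less with PMA (0.63 and 0.31). E2F8, a repressor related to E2F7, rose with ConA (0.83, adjusted p = 0.000168), with 0.01 for PMA (adjusted p = 0.979). CDKN2A (p16) and CDKN2B were listed in the PMA table alone, as were all the T and NK cell markers except CD3D. Whether their reads came from the HT1080 cells was not tested. CDKN2A held 111 ± 17 in the controls and 141 ± 30.5 with PMA (SD, n = 3), which overlapped (adjusted p = 0.116). CDKN2A was called higher under quantile normalization (adjusted p = 0.0218) and without PMA library 2 (adjusted p = 0.0198).

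Of 13 further G1 and transcription factor genes, 7 rose and 2 fell with PMA (53.8% and 15.4%) and 7 rose and 4 fell with ConA (53.8% and 30.8%), beside 32.8% and 30.5% of all genes with PMA and 32.8% and 32.5% with ConA. The D cyclin partner CDK6 rose with PMA (0.85, adjusted p = 4.5e-07), with -0.09 for ConA (adjusted p = 0.402), as CCND1 had. Cyclin D3 (CCND3) rose with both, by 0.70 with PMA and 1.40 with ConA. The DREAM complex subunits LIN9, LIN52 and LIN54, which work with MYBL2 at CHR elements, rose with ConA by 1.25, 0.64 and 0.94 and with PMA by 0.25, 0.40 and 0.36 (all log2). The rise of LIN9 with PMA was lost without PMA control 1, PMA control 2 or PMA library 1 (adjusted p 0.0525 to 0.0811). MYC fell with both treatments (-0.19, adjusted p = 0.00271, and -0.79, adjusted p = 6.13e-07).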

How the data were processed

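RNA-seq of polyadenylated RNA was made by a service company from 12 HT1080 libraries, 3 in each of 4 groups. The deposited values are a signal: the authors scaled the read counts of each gene symbol by 1 factor per library within each table, giving normalized counts. The submitters' processing notes name Partek, Bowtie2, STAR, DESeq2, hg19 and mm10 without a role. Whole reads were not recovered (80.2% to 82.6% of the values between 5 and 60 became whole within 0.02 reads), so no count test was run. Genes with a mean of at least 10 over the 6 libraries of a table were tested with limma 3.58.1 in R 4.3.3 on log2(value + 1) with a variance trend, and p-values were adjusted by Benjamini-Hochberg over all genes of the table. The difference between the treatments (PMA change minus ConA change) was tested over all 12 libraries with 4 group means. The test was also run on simulated whole counts with 1 spread setting for all genes and few changed genes. These settings differ from the data, so no error rate is taken from that run.

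The 53 members and all lists were chosen with earlier results of these data known. Named genes are 16 set ones (MCM2, PCNA, CDC6, RRM2, E2F1, CCND1, CCNE1, CCNE2, CDC25A, CDK1, CCNB1, PLK1, TOP2A, MKI67, FOXM1 and MYBL2), the 3 largest called changes per class and treatment, the 5 largest differences, the 3 largest per further list and treatment, and CDKN1A, CDKN1B, CDKN2A and MYC. Others, such as MCM6 and TYMS, were named after their values were seen. Older symbols were matched through RefSeq synonyms. Alternatives were other pseudocounts (0.1 and 10), minimum levels (none and 50), scalings, variance models, a stricter threshold, other class definitions and leaving out each library. The remaining marker lists gave little. Monocyte genes summed to 300 to 460 and endothelial genes to 44.3 to 145 normalized counts, and the B cell gene CD79B to at most 10.8. Numpy 2.4.6, pandas 2.3.3 and matplotlib 3.10.9 were used in Python 3.11.15.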

Additional observations from a re-analysis of the deposited data

Results flagged for a closer look

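For 6 members the responses to PMA and ConA differed by at least 2-fold with an adjusted p of at most 0.0001 in the limma test over all 12 libraries, and for all 6 the PMA response was the lower. The log2 differences were -1.67 for TOP2A (SE 0.06), -1.14 for GINS1 (SE 0.12), -1.08 for CDK1 (SE 0.10), -1.07 for ORC6 (SE 0.09), -1.03 for KIF11 (SE 0.08) and -1.01 for MKI67 (SE 0.13). E2F2 differed by -1.32 (SE 0.27), but its adjusted p of 0.000381 did not meet the rule. Over all genes tested, 10.6% met the same rule. Of the 6, TOP2A alone was called in opposite directions by the treatments. Treatment and experiment cannot be told apart in these differences. The part of the T and NK cell marker transcripts, of which 5 of 8 rose with PMA, was not tested.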

How the results depend on the processing

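The numbers of members called higher with PMA (22 to 24 with a library left out) and with ConA (41 to 44), lower with PMA (13 to 14), and different between the treatments (41 to 43) stayed within 1.5 times under every alternative run. Called lower with ConA were 4 members, but 2 without a variance trend or at an adjusted p of at most 0.01, and 2 to 5 with a library left out, 2 of them without ConA control 5, ConA control 6, ConA library 2 or ConA library 3. By the 2-fold rule 0 members passed with PMA without a variance trend and 2 under quantile normalization. The medians kept their sign. With PMA, quantile normalization gave 0.37 for replication, -0.33 for mitotic genes and 0.70 for their difference, means in place of medians gave 0.32 and 0.57 for replication and the difference, and leaving out libraries gave 0.35 to 0.44, -0.27 to -0.21 and 0.61 to 0.67. With ConA, the replication median was 0.56 under median centring, 0.57 with a pseudocount of 10, 0.54 under quantile normalization, 0.66 with the G1/S regulators included and 0.56 to 0.66 with a library left out. The mitotic median with ConA was 0.39 under median centring, 0.40 as a mean and 0.35 to 0.47 with a library left out, and the difference of the medians (0.17) was 0.12 with a pseudocount of 10 (0.1246) or quantile normalization (0.1216), 0.24 as means and 0.10 to 0.32 with a library left out, lowest without ConA control 6 (0.0989) and highest without ConA control 5 (0.3181). The causes were not tested, and the limit that depth sets on single genes was not measured.

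Signs were compared for the named genes. Values that changed sign were called neither in the fit given above nor in the setting where the sign changed. Under quantile normalization, where their sign was kept, CCND1 with ConA and MKI67 with PMA were called, as given above. With PMA they were E2F8 (-0.0053 under median centring, -0.1428 to 0.0971 with a library left out, below 0 without PMA control 3 or PMA library 3), E2F2 (0.1968 under quantile normalization, -0.1291 to 0.038 with a library left out, above 0 without PMA library 2), CDK1 (-0.0117 to 0.1131) and MKI67 (-0.0255 to 0.0034), both turning without PMA control 3. With ConA they were CCND1 (-0.029 under median centring) and PLK1 (-0.0843 to 0.0047 with a library left out, above 0 without ConA control 6 or ConA library 2). The replicate numbers 1 to 3 in the PMA experiment were not seen to pair the samples. Correlations of deviations were -0.0636, 0.0964 and 0.0964 for equal numbers, and -0.1758 to 0.106 for unequal numbers. With 3 libraries a group, these values cannot exclude pairing. With the replicate number as a block 23 members were higher and 15 lower with PMA, with medians of 0.40 for replication and -0.24 for mitotic genes and 1 member past the 2-fold rule. Under the block GINS1 with PMA was no longer called (adjusted p = 0.0549) and FOXM1 was called lower (adjusted p = 0.0263). The ConA controls carry other numbers, so no block was possible there.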
